A study of Arabidopsis thaliana with 8 samples.

Results

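The VND and NST genes encode the NAC transcription factors that act as master switches of xylem in Arabidopsis. VND1 to VND7 drive the differentiation of water-conducting vessel elements, and SND1 (also called NST3), NST1 and NST2 drive the thick secondary walls of fibres and of the anther endothecium. Each factor activates MYB46 and MYB83, which with further MYB and NAC factors switch on the enzymes that make cellulose, xylan and lignin, and vessel elements then die by a programme that uses proteases and nucleases. The 10 genes were taken as listed loci, and they are 10 of 27444 nuclear protein-coding genes in the RefSeq table used for positions.

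The assay was ATAC-seq, where a transposase inserts adapters into exposed DNA, and the deposited lists give transposase hypersensitive sites (THSs) for each library. GFP+ protoplasts are the lateral organ founder cells, and GFP- protoplasts are the remaining inflorescence meristem cells, both sorted from inflorescence apices of 700 to 900 plants of genotype DRNL::erGFP ap1cal. Founder cells are the small groups of meristem cells that start a new organ, and the reporter puts endoplasmic-reticulum GFP under the promoter of DRNL, a gene active in them. All plants were ap1 cal double mutants, in which meristems multiply without making flowers, grown on soil in long days for 4 to 5 weeks. Each group has 3 libraries, from pools of plants, with 95000 to 300000 GFP+ protoplasts and about 300000 GFP- protoplasts collected per experiment. The labels describe the 3 as biological replicates, and 2 libraries of sheared DNA are not analysed here.

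The GFP+ lists held 24156, 26216 and 25623 THSs and the GFP- lists 26001, 26310 and 28757 THSs, covering 17.3 to 19.6 Mb and 17.8 to 19.4 Mb of the genome. Read depth is unknown. DRNL, the gene that marks the sort, had 55.7%, 59.0% and 66.8% of its window, meaning the gene plus 1000 bp flanks, covered in GFP+ libraries, against 39.1%, 35.8% and 29.1% in GFP- libraries. The DRNL groups did not overlap, and the difference had an adjusted p of 0.0815 (limma over 21886 genes with coverage in at least 2 libraries, Benjamini-Hochberg, threshold 0.05). With 500 bp on each side the adjusted p was 0.0301 by limma, with 2000 bp 0.109 and with 3000 bp 0.118. Among 7 founder and organ markers, 6 had all GFP+ libraries above all GFP- libraries, beside 3.61% of all genes tested. By limma 1 of the 7 passed as higher, beside 0.347% of all genes tested. Coverage in a sorted population cannot tell a change within cells from a change in the mix of cells.

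Of the 10 xylem NAC genes, 7 could be tested and none of these passed limma between founder cells and their neighbours, and no THS region near them was in all libraries of one population and none of the other. The genes differed far more among themselves than between the populations. NST2 and VND2 stood at the top with over 30% of their windows covered in every library, while the windows of VND4, VND6 and SND1 held no THS in all 6 libraries. The 3 GFP+ libraries lay above the 3 GFP- libraries at VND2, as they did at 3.61% of all genes tested. They lay below them at 1 region beside NST1 and 1 region beside NST2. These are 2 of 30 regions, near the 5.9% of regions genome-wide.

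Coverage of the gene windows gave no call at the members. Of the 10 genes, 7 had coverage in at least 2 libraries and were tested, and 0 of 7 passed limma in either direction. Over all 21886 genes tested, 0.347% were called higher in GFP+ and 1.14% lower. Adjusted p-values of the 7 genes ran from 0.281 to 1. At an unadjusted p under 0.05 by limma, 2 of the 7 passed, VND2 (higher) and NST2 (lower), beside 10.8% of all genes tested. With 3 libraries against 3 the exact permutation test, two-sided over 20 splits, cannot go below 0.1.

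**Figure D1:**
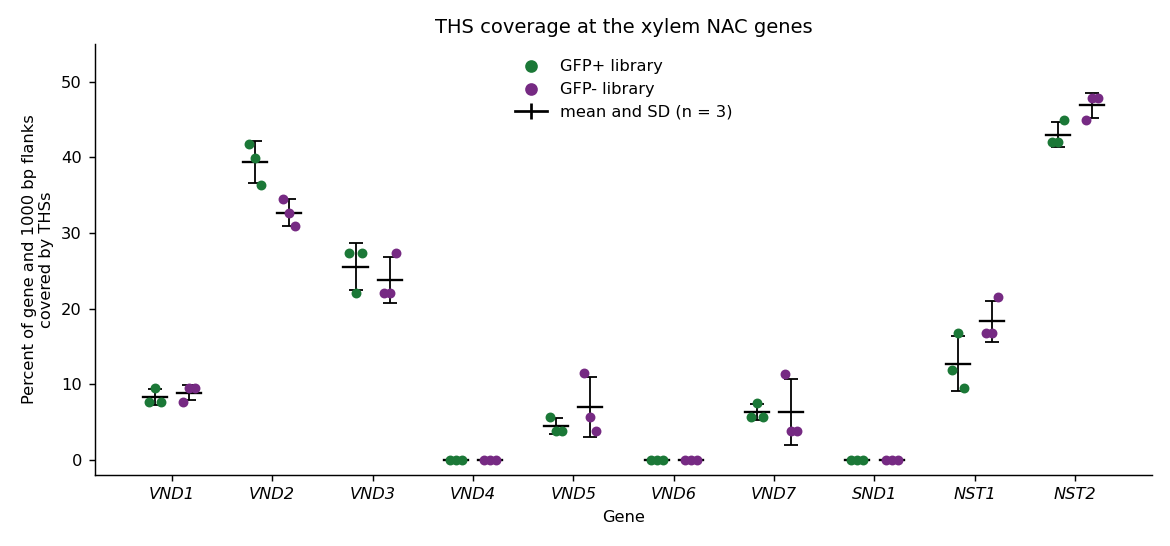
Percent of each gene window (the gene plus 1000 bp flanks) lying in THSs, for the 10 xylem NAC genes; each point is a library, GFP+ (green) left of GFP- (purple), and lines show the mean and SD (n = 3). NST2 and VND2 lie between 30.9% and 47.8% in every library, and VND4, VND6 and SND1 are at 0 in all 6.

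Of the vessel regulators, VND1 (AT2G18060, chr2:7847967-7851606) was sparsely covered, with 7.70%, 9.47% and 7.70% in GFP+ libraries against 7.70%, 9.47% and 9.47% in GFP- libraries. The same values recur in both groups, and site ends fall on a 100 bp grid. VND1 acts with VND2 and VND3 in the xylem of young seedlings. Its mean coverage was 8.29% ± 1.02 in GFP+ and 8.88% ± 1.02 in GFP- (SD, n = 3 each; exact permutation p = 1). Its 3 regions were in all 6 libraries, at chr2:7851501-7851800 across the end of the gene and at chr2:7845701-7846100 and chr2:7846801-7847200, which both overlap the neighbouring histone H1 gene HIS1-3.

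VND2 (AT4G36160, listed as NAC076, chr4:17110645-17114141) was the vessel regulator with the most accessible window. THSs covered 41.8%, 39.97% and 36.3% of it in GFP+ libraries, against 34.5%, 32.7% and 30.9% in GFP- libraries. Every GFP+ library lay above every GFP- library. The mean was 39.4% ± 2.78 in GFP+ and 32.7% ± 1.82 in GFP- (SD, n = 3 each), a difference of 6.67 points with an SE of 1.88. That difference had an adjusted p of 0.281 by limma and an exact permutation p of 0.1, the smallest possible. VND2 was 1 of 7 tested members with all GFP+ above all GFP-, and 3.61% of all genes tested were so. The VND2 groups overlapped with the gene body alone, the flanks alone or 3000 bp on each side as the window, and also with the lists cut to equal numbers of top-scoring sites or without the lowest-scoring 25%.

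Most of the open DNA in the VND2 window belongs to a wide domain shared with the next gene, AT4G36170, which overlaps VND2 by 270 bp. This domain, chr4:17113701-17116400, had 2400, 2500 and 2700 bp covered in GFP+ libraries, against 2400, 2100 and 2200 bp in GFP- libraries. The groups touch at 2400 bp (exact permutation p = 0.2). Its highest-scoring THS stood between the 95.5th and 98.6th percentile of the authors' score in every library, where 100 is the top of a list. At the other end of VND2, chr4:17110201-17110800 had 600, 300 and 200 bp in GFP+ libraries against 200, 300 and 200 bp in GFP- libraries. That region overlaps the gene's low end, and the high value came from 1 GFP+ library. Inside the gene, chr4:17113301-17113600 held a THS in GFP+ replicate 2 alone, 300 bp wide and at the 3.74th percentile of its list. This low-scoring site counts in the 39.97% of the window covered in GFP+ replicate 2, and so in the separation of the VND2 groups. The number of THSs within 3000 bp of VND2 was 5, 7 and 4 in GFP+ libraries against 7 in each GFP- library (exact permutation p = 0.4). Within 1000 bp, the mean number of THSs differed by 0.

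VND3 (AT5G66300, listed as NAC105, chr5:26479766-26481528) had 27.3%, 22.0% and 27.3% of its window covered in GFP+ libraries, against 22.0%, 22.0% and 27.3% in GFP- libraries. The values interleave, and the means of 25.5% ± 3.07 in GFP+ and 23.8% ± 3.07 in GFP- (SD, n = 3 each) gave an exact permutation p of 1. It had 2 regions, each in all 6 libraries. The region at chr5:26479501-26480000, which spans the gene's low end and the end of AT5G66290, was 500 bp wide in every library. The region at chr5:26482001-26483100, 473 bp past the high end and in no annotated gene, had 1100, 900 and 1100 bp in GFP+ libraries against 800, 800 and 1000 bp in GFP- libraries (exact permutation p = 0.2).

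VND4 (AT1G12260, listed as NAC007, chr1:4162826-4165928) had no THS within 1000 bp in any library. Its nearest THS began 1073 bp past the high end in all 6 libraries. That site, chr1:4167001-4167300, was 300 bp wide in every library and stood between the 56.4th and 69.2nd percentile of the authors' score. A second region, chr1:4167401-4168400, had 500, 600 and 600 bp in GFP+ libraries against 500, 800 and 600 bp in GFP- libraries. VND4 was thus bare over its body and close flanks in both populations, with a constant site just beyond.

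VND5 (AT1G62700, listed as ANAC026, chr1:23215953-23219209) had 5.71%, 3.80% and 3.80% covered in GFP+ libraries, against 11.4%, 5.71% and 3.80% in GFP- libraries. The means were 4.44% ± 1.098 in GFP+ and 6.97% ± 3.96 in GFP- (SD, n = 3 each; exact permutation p = 0.7). The highest value came from GFP- replicate 1, which alone held a THS over the gene's end, chr1:23219201-23219600. The site found in all 6 libraries, chr1:23219701-23220000, lies 492 bp past the gene and was among the lower-scoring, at the 1.34th to 27.3rd percentile.

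VND6 (AT5G62380, listed as NAC101, chr5:25050152-25052054), which in Arabidopsis roots specifies metaxylem vessels, had no THS within 1000 bp in any library. Its nearest THS lay 1947, 2047 and 2047 bp away in GFP+ libraries, against 2047 bp in each GFP- library. Sites lay on both sides of it in every library. The region at chr5:25045501-25047300, over the non-coding gene AT5G09060, had 1300, 1800 and 1100 bp in GFP+ libraries against 1200, 1600 and 1500 bp in GFP- libraries. The region at chr5:25054001-25055200, over BAG7 and AT5G62400, had 1200, 1000 and 1000 bp in GFP+ libraries against 1000 bp in each GFP- library. BAG7, a co-chaperone gene, overlaps VND6 by 77 bp. Another region, chr5:25047401-25048100, lay 2052 bp on the low side and in no annotated gene. It had 700, 600 and 600 bp in GFP+ libraries against 700, 400 and 600 bp in GFP- libraries. The VND6 body was therefore uncovered between accessible regions in all 6 libraries.

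VND7 (AT1G71930, chr1:27074702-27077991), which in roots specifies protoxylem vessels, had 5.65%, 7.54% and 5.65% covered in GFP+ libraries, against 11.3%, 3.78% and 3.78% in GFP- libraries. The GFP- values straddle the GFP+ values. The means were 6.28% ± 1.09 in GFP+ and 6.29% ± 4.35 in GFP- (SD, n = 3 each; exact permutation p = 1). GFP- replicate 1 alone held a THS inside the gene, chr1:27075701-27076000, at the 3.73rd percentile of its list. The site in all 6 libraries was chr1:27078401-27078700, 410 bp past the high end and touching AT1G71940. A region on the low side, chr1:27073301-27073800, had 500, 300 and 500 bp in GFP+ libraries against 300, 0 and 400 bp in GFP- libraries (exact permutation p = 0.3).

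Of the fibre regulators, SND1 (AT1G32770, listed as NAC012, chr1:11865229-11867154) stood in the barest surroundings. No THS lay within 1000 bp in any library. The nearest lay 4529, 2729 and 4829 bp away in GFP+ libraries, against 4729, 4929 and 4929 bp in GFP- libraries. The 1 closer site, chr1:11862301-11862500 in GFP+ replicate 2, was at the 0.359th percentile of its list, near the bottom. SND1 is the main switch of fibre walls in stems, acting with NST1.

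NST1 (AT2G46770, chr2:19220725-19222916) had 11.9%, 16.7% and 9.54% covered in GFP+ libraries, against 16.7%, 16.7% and 21.5% in GFP- libraries. The groups met at 16.7%. The means were 12.7% ± 3.64 in GFP+ and 18.3% ± 2.75 in GFP- (SD, n = 3 each), a difference of -5.57 points (adjusted p = 0.517 by limma; exact permutation p = 0.3). The mean differences of the gene body and of the flanks had opposite signs, and neither passed limma. Body coverage alone gave a difference of 4.56 points, with overlapping groups (adjusted p = 0.785 by limma). The flanks alone gave -16.7 points (adjusted p = 0.133 by limma).

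The flank difference at NST1 lay in 1 region, chr2:19223501-19223900, which lies 585 bp past the high end and in no annotated gene. It had 0, 200 and 0 bp covered in GFP+ libraries, against 400 bp in each GFP- library. All GFP+ libraries lay below all GFP- libraries (exact permutation p = 0.1). The site stood at the 27.6th to 38.3rd percentile of the authors' score in GFP- libraries and at the 10.3rd in the GFP+ library that held it. Inside the gene, chr2:19220801-19221300 had 500, 500 and 400 bp in GFP+ libraries against 300, 300 and 500 bp in GFP- libraries, and these groups overlap. A further region, chr2:19225701-19226000, lies 2785 bp past the high end. It had 300 bp in each GFP+ library against 200, 0 and 300 bp in GFP- libraries, and its groups overlap too (exact permutation p = 0.4).

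NST2 (AT3G61910, listed as NAC066, chr3:22929006-22930456) had the largest covered share of its window, with 1000 bp flanks, of the 10. THSs covered 42.0%, 42.0% and 44.9% of its window in GFP+ libraries, against 44.9%, 47.8% and 47.8% in GFP- libraries. The groups met at 44.9%. The means were 43.0% ± 1.67 in GFP+ and 46.9% ± 1.67 in GFP- (SD, n = 3 each), a difference of -3.86 points (adjusted p = 0.449 by limma; exact permutation p = 0.2). With 2000 bp on each side the values were 49.5%, 49.5% and 44.0% in GFP+ libraries, against 55.04%, 60.4% and 58.6% in GFP- libraries. These groups do not overlap, and the difference was -10.3 points (adjusted p = 0.158 by limma; exact permutation p = 0.1).

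Most of the wider difference at NST2 lay in the region at chr3:22926901-22928300, 706 bp on the low side and in no annotated gene. It had 800, 900 and 500 bp covered in GFP+ libraries, against 1100, 1300 and 1400 bp in GFP- libraries. All GFP+ libraries were narrower than all GFP- libraries (exact permutation p = 0.1). Its top THS stood at the 67.8th to 71.2nd percentile in GFP+ libraries and at the 75.0th to 83.4th in GFP- libraries. The region across the gene itself, chr3:22928801-22930000, had 900, 900 and 1000 bp in GFP+ libraries against 1000, 1100 and 1000 bp in GFP- libraries. Its top THS stood at the 90.2nd to 94.7th percentile.

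**Figure D2:**
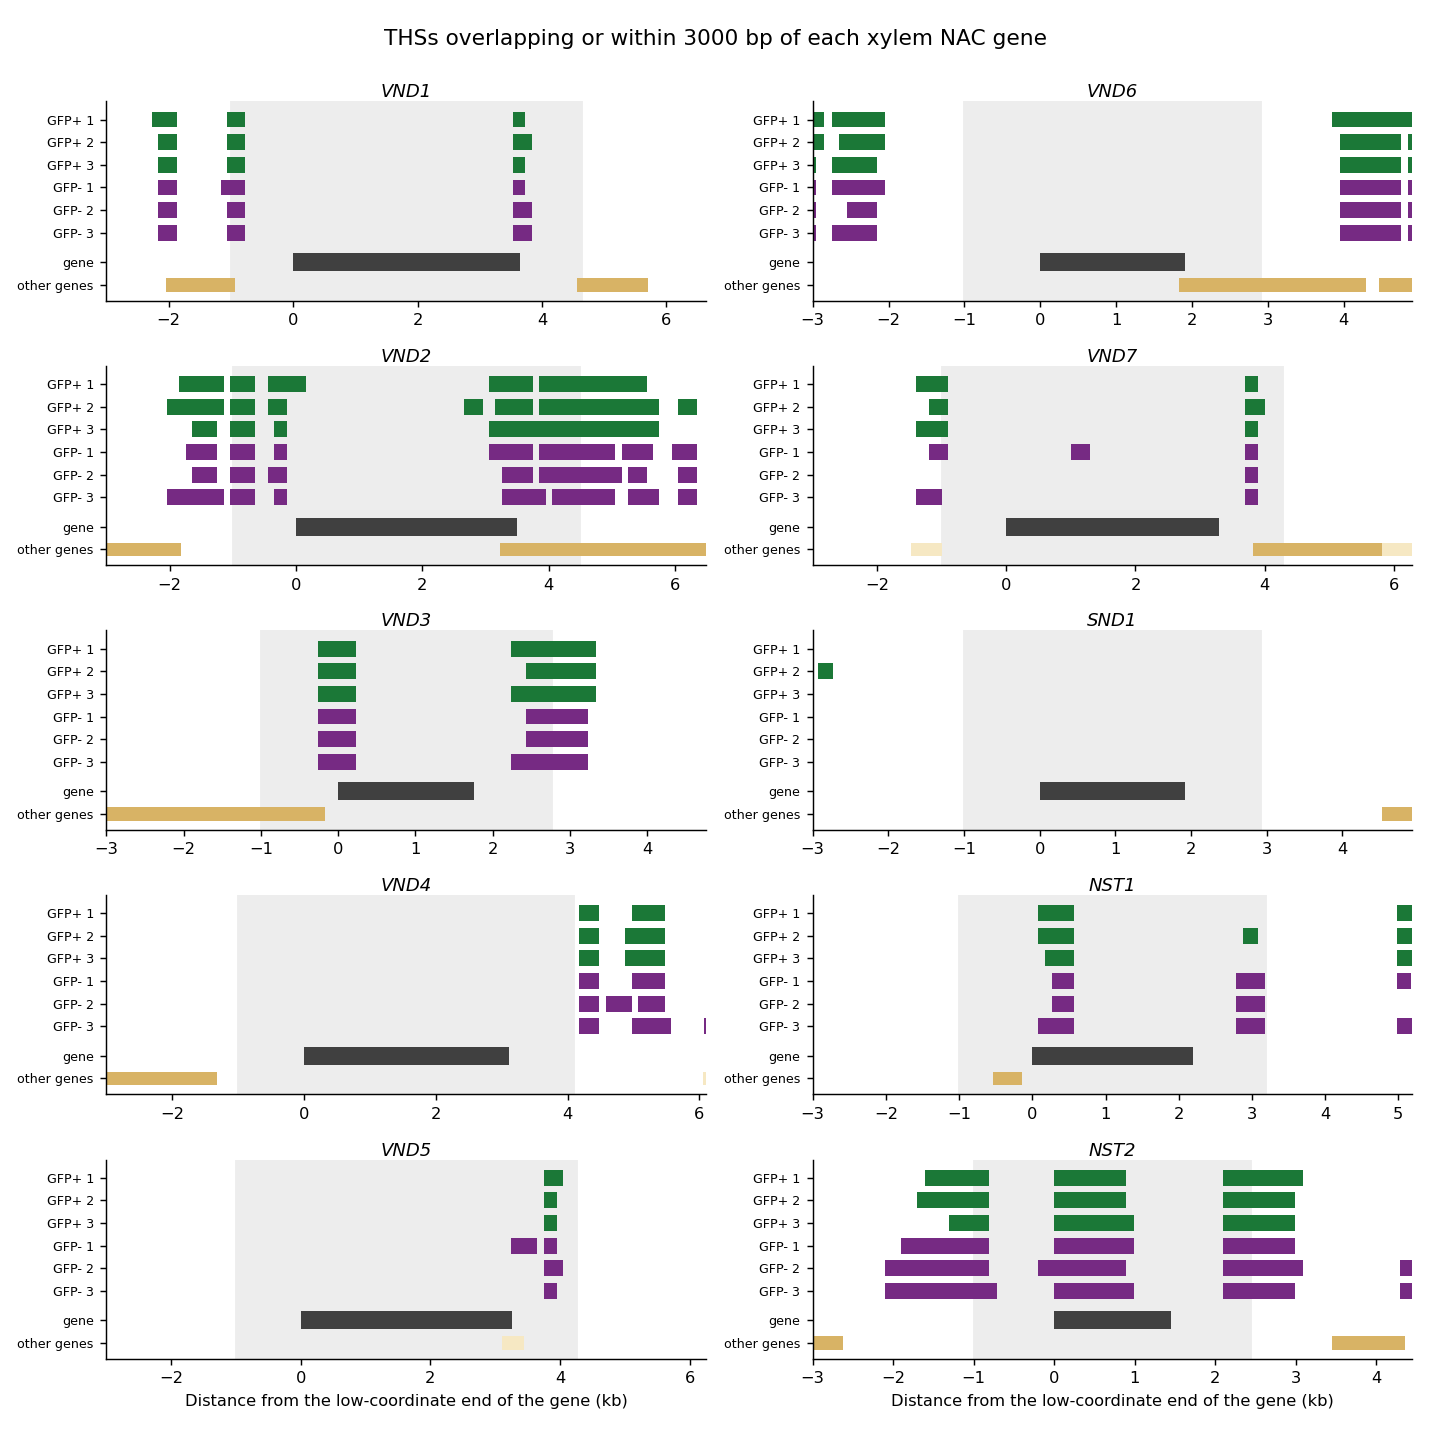
THSs within 3000 bp of each gene, by distance from the gene's lowest coordinate in kb; each row of bars is a library, GFP+ (green) above GFP- (purple), and the gene and its annotated neighbours (pale where non-coding) are drawn under them, with the 1000 bp window in grey. Sites that lie wholly beyond 3000 bp are not drawn; the rightmost NST2 region was covered in all 6 libraries but reaches within 3000 bp in 2 of them alone. The sites recur in the same places in most libraries, and the bodies of VND4, VND6 and SND1 are empty in all 6.

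All THSs within 3000 bp were then merged over libraries, which gave 30 regions near the 10 genes. Of these, 21 (70.0%) were in all 6 libraries, beside 70.1% of 26792 regions genome-wide. Regions in all GFP+ and no GFP- libraries numbered 0, against a background of 0.418%, and regions in all GFP- and no GFP+ libraries also 0, against 2.1%. Covered length was lower in all GFP+ than in all GFP- libraries at 2 of 30 regions, those beside NST1 and NST2 described above. Genome-wide 5.9% of regions were, so 2 of 30 is near the background. It was higher at 0 of 30, against 3.51%. In all, 5 regions were seen in 1 library alone (16.7%, beside 8.54% genome-wide), at the 0.359th to 15.5th percentile of their lists. Such sites fell at VND2 and SND1 in GFP+ replicate 2, at VND5 and VND7 in GFP- replicate 1 and at VND4 in GFP- replicate 3.

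**Figure D3:**
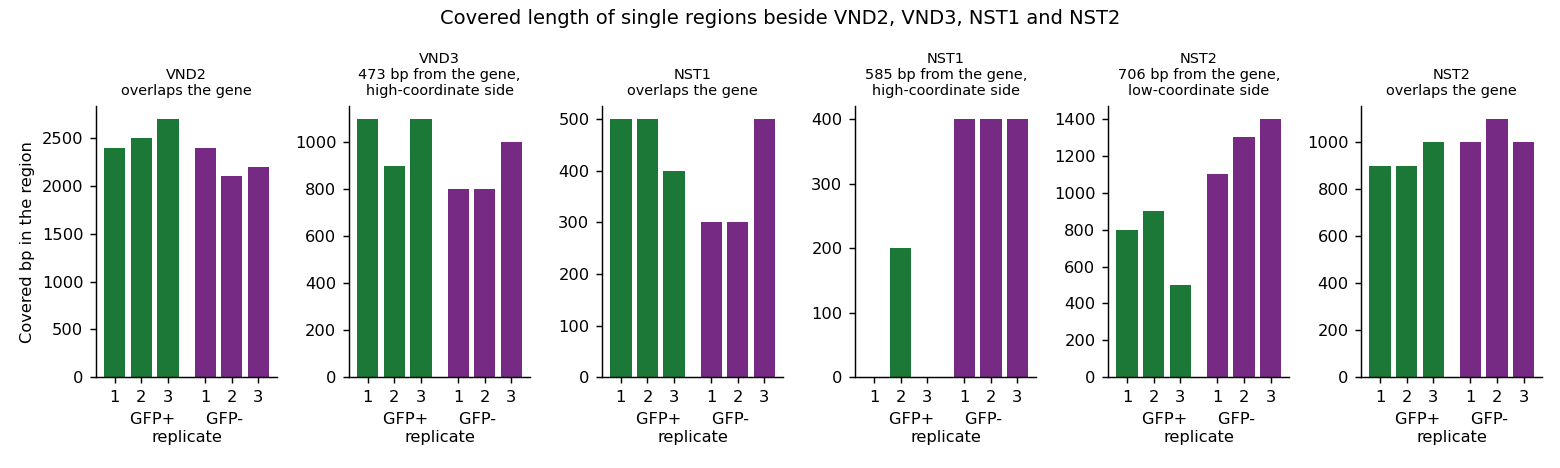
Covered length in bp of 6 regions near VND2, VND3, NST1 and NST2, each bar a library, GFP+ (green) left of GFP- (purple), with a scale of its own from 0 in each panel. At the NST1 region 585 bp and the NST2 region 706 bp from the gene, every GFP+ library lies below every GFP- library. The values are 0 to 200 bp against 400 bp at NST1, and 500 to 900 bp against 1100 to 1400 bp at NST2. In the other panels, which include the regions that overlap NST1 and NST2 themselves, the groups overlap.

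The order of the genes was the same in all 6 libraries at its upper end. Averaged over libraries, NST2 had 44.9%, VND2 36.0%, VND3 24.7%, NST1 15.5% and VND1 8.58% of the window covered, and the ranges of neighbours in this order do not overlap. VND7 (6.29%) and VND5 (5.71%) overlapped with VND1 and with each other, and no order can be read among them. Among all protein-coding genes, NST2 had more coverage than or as much as 90.6% of genes, VND2 85.0%, VND3 71.9%, NST1 54.2%, VND1 36.3%, VND7 29.9% and VND5 28.5%. The 3 genes with no THS in the window in any library are 30.0% of the members, beside 18.0% of all genes. For 90 other NAC genes, a list chosen after the data were seen, it was 14 (15.6%).

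**Figure D4:**
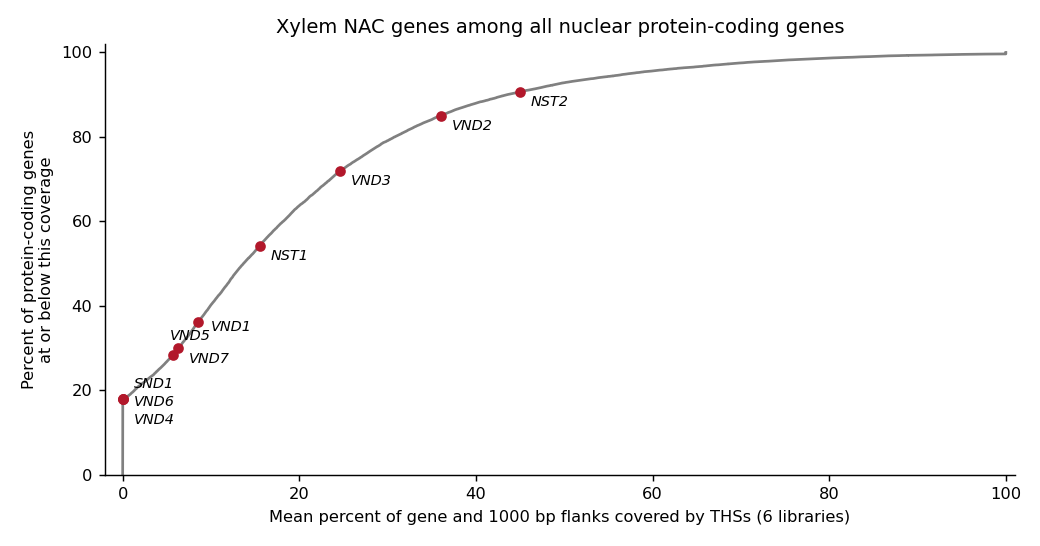
Share of all protein-coding genes (percent, y axis) with at most a given mean THS coverage of the window over 6 libraries (percent, x axis), with the 10 xylem NAC genes marked. NST2 and VND2 lie at 90.6% and 85.0% of genes, and VND4, VND6 and SND1 sit at 0 with 18.0% of genes.

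Summed over the 10 genes, 23, 28 and 23 THSs lay within 3000 bp in GFP+ libraries, against 29, 27 and 29 in GFP- libraries. The groups overlap. Mean coverage over the 10 windows was 14.2%, 14.2% and 13.5% in GFP+ libraries, against 14.9%, 13.8% and 14.5% in GFP- libraries. The same mean over all protein-coding genes was 17.5% to 19.8% in GFP+ libraries and 18.0% to 19.7% in GFP- libraries. The mean over the 10 windows sat below it in every library, while NST2, VND2 and VND3 each lay above it in every library. For the 7 tested genes the median difference was -0.59 points, with 2 above and 5 below 0, beside a median of 0 over all genes tested.

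The authors' deposited table lists genes by population, with a rule not stated in the sources used here. It lists all 10 genes for GFP+ and 5 of them (VND2, VND3, VND7, NST1 and NST2) for GFP-. Of all protein-coding genes, the authors' deposited table lists 89.1% for GFP+ and 72.3% for GFP-. VND1, VND4, VND5, VND6 and SND1 therefore stand for GFP+ alone in the authors' deposited table, as do 17.5% of protein-coding genes. Within 1000 bp the site lists of the libraries do not split these 5 genes in that way. VND1 and VND5 had a THS in the window in all 3 GFP- libraries, and VND4, VND6 and SND1 had none in any GFP+ library. Within 3000 bp, SND1 had its THS in GFP+ replicate 2 and none in GFP- libraries, while VND4 and VND6 had THSs in all 6. A THS of the same population lay within 1000 bp for 85.8% of the protein-coding genes in the GFP+ column of the authors' deposited table and for 99.9% of those in its GFP- column. No member is in the columns of higher or lower differential THSs, where the authors' deposited table has 0.412% and 1.37% of protein-coding genes.

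VND2 had the largest moderated t of the members, and the 5 protein-coding genes with the most similar coverage over the 6 libraries were AT1G27640, AT5G11480, RRF, AT5G06040 and HCT. Their Euclidean distances from VND2 were 4.18 to 5.27 percentage points. HCT, an enzyme of lignin precursor synthesis, had 38.2%, 38.2% and 35.6% covered in GFP+ libraries, against 35.6%, 30.5% and 33.1% in GFP- libraries. The HCT groups touch at 35.6%. The measure rests on level and pattern in the same 6 libraries and is given as a description.

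Genes around and under the xylem NAC factors, root cap NAC relatives, and procambium and phloem genes were read from 7 lists. The lists hold 80 genes, referred to below as pathway genes, of which 67 could be tested. By limma 0 of 67 were higher in GFP+ and 1 was lower, beside 0.347% and 1.14% of all genes tested. At an unadjusted p under 0.05 by limma, 2 of 67 were higher and 6 lower, beside 3.84% and 6.95% of all genes tested. The 1 gene was SEOR1, which encodes a filament protein of phloem sieve elements. It had 2.00%, 2.00% and 0% of its window covered in GFP+ libraries, against 17.9%, 19.7% and 21.5% in GFP- libraries. The groups lay far apart, by -18.4 points (adjusted p = 0.00626 by limma; exact permutation p = 0.1). Without the lowest-scoring 25% of each list the difference was -17.3 points, with an adjusted p of 0.0991 by limma. Among all 7 phloem genes the library means were 9.26% to 10.9% in GFP+ and 13.0% to 18.0% in GFP-. Without SEOR1 the means of the other 6 overlapped, at 12.3%, 12.1% and 10.8% in GFP+ libraries against 12.5%, 11.9% and 17.5% in GFP- libraries. APL, the phloem identity gene, had no THS in its window in any library.

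Of the regulators, 24 of 27 were tested and 0 passed limma. All GFP+ libraries lay below all GFP- libraries at 5 of 24 (20.8%, beside 6.63% of all genes tested), and above them at 1 (4.17%, beside 3.61%). MYB83, the direct target of the members, had 15.7%, 15.7% and 18.3% in GFP+ libraries against 20.9% in each GFP- library (adjusted p = 0.146 by limma). It passed without GFP+ replicate 3 (adjusted p = 0.0236 by limma). MYB46, its partner, had 13.6%, 15.9% and 15.9% in GFP+ libraries against 13.6%, 22.7% and 22.7% in GFP- libraries, and its groups overlap. VNI2, a NAC repressor that binds VND7, had 54.3%, 48.8% and 49.9% in GFP+ libraries against 58.2%, 63.6% and 66.4% in GFP- libraries (adjusted p = 0.1997 by limma). These 3 regulators were covered in all 6 libraries, with the GFP- means above the GFP+ means. Among all 24 tested regulators, 9 differences were above 0 and 14 below, with a median of -0.66 points.

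The other non-overlapping regulators did not pass limma either. MYB103, which acts in secondary walls, had 0%, 5.01% and 0% in GFP+ libraries against 10.0%, 10.0% and 7.52% in GFP- libraries (adjusted p = 0.196 by limma, and 0.0112 without the lowest-scoring 25% of each list). WRKY12, a repressor of secondary walls in pith, had 5.14%, 0% and 0% in GFP+ libraries against 7.71%, 10.2% and 17.9% in GFP- libraries (adjusted p = 0.349 by limma). MYB7, a repressor-type MYB, had 51.4%, 45.5% and 42.5% in GFP+ libraries against 54.4% in each GFP- library (adjusted p = 0.349 by limma). LBD18 was the regulator with all GFP+ libraries above, at 19.5%, 21.7% and 17.2% against 14.9% in each GFP- library (adjusted p = 0.266 by limma). LBD18 and its relative LBD30 act in a loop with VND7, and LBD30 had overlapping groups. MYB42, MYB52 and MYB69 had no THS in their windows in any library.

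Among the enzymes, some genes were covered in every library and others were bare. CESA4, CESA7 and CESA8, the cellulose synthases of secondary walls, held no THS in their windows in all 6 libraries, and neither did IRX8, a xylan gene. The remaining 8 cellulose and xylan genes were tested and 0 passed limma. PARVUS, a gene of xylan synthesis, had 86.4%, 91.9% and 86.4% in GFP+ libraries against 81.0%, 78.3% and 81.0% in GFP- libraries, groups that do not overlap (adjusted p = 0.196 by limma). With 3000 bp on each side its difference was -0.87 points. Lignin genes were broadly covered, with library means of 40.4% to 43.5% in GFP+ and 37.6% to 43.0% in GFP-, and 0 of 13 tested passed. LAC17, a laccase, had no THS in its window in any library. In the death programme, XCP1 and RNS3 had none either, while the protease gene XCP2 had 16.2%, 27.2% and 24.5% in GFP+ libraries against 18.97%, 24.5% and 27.2% in GFP- libraries. Of the NAC relatives in the root cap, BRN2 and FEZ had none, and 0 of 2 tested passed.

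**Figure D5:**
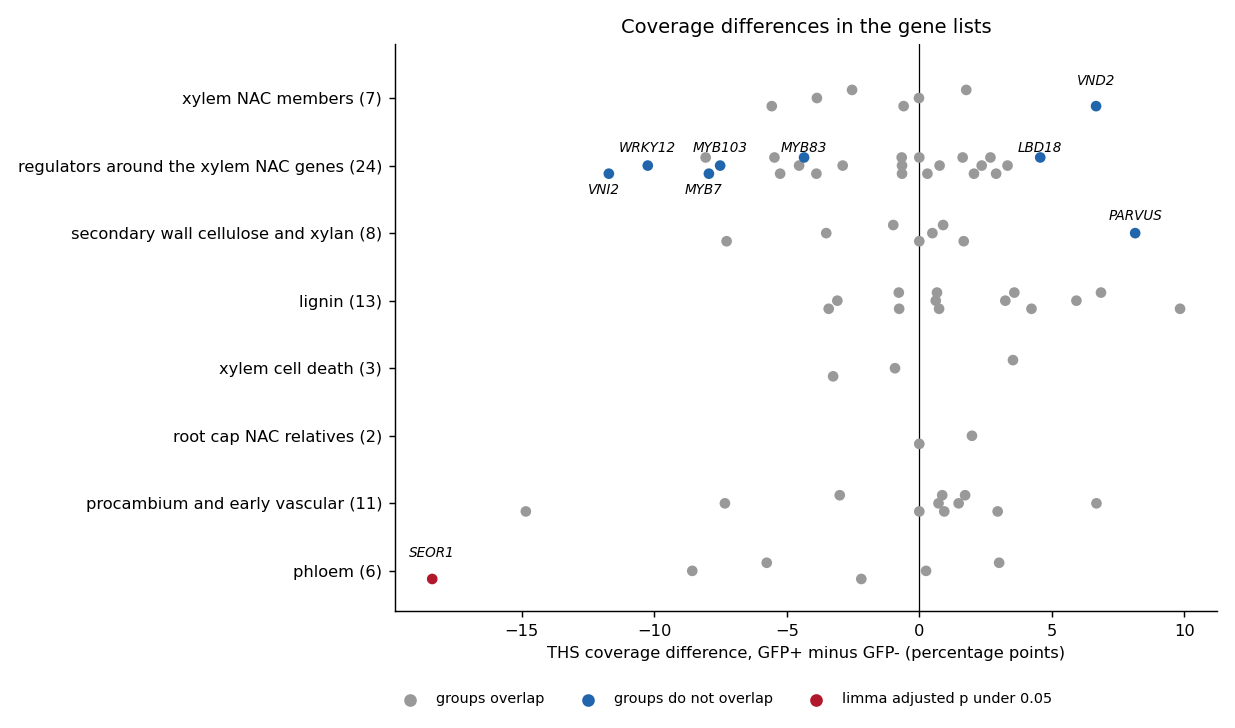
Difference in THS coverage of the gene window (GFP+ minus GFP-, percentage points) for the tested genes of each list, with the number tested in brackets; blue points are genes whose groups do not overlap and the red point is SEOR1, the only gene of these lists past the limma threshold. The xylem NAC genes lie between -5.57 and 6.67 points, and SEOR1 is at -18.4 points.

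The markers of other cell types did not pass limma, but the library means of some lists did not overlap. Over 5 epidermis markers the library means were 30.3% to 35.2% in GFP+ and 22.9% to 26.3% in GFP-, with 4 of 5 genes higher in all GFP+ libraries. Over 5 mesophyll markers they were 33.6% to 38.4% in GFP+ and 39.1% to 41.8% in GFP-, with 2 of 5 lower. Over 11 procambium and early vascular genes, which include ATHB8, PXY and WOX4, they were 21.4% to 26.6% in GFP+ and 23.2% to 25.7% in GFP-, and 0 of 11 genes had groups apart. Over 4 stem cell and meristem markers they were 18.4% to 27.7% in GFP+ and 23.4% to 25.5% in GFP-, with 1 of 4 higher. Every gene of these 4 lists had a THS in at least 1 library. Over all genes tested, all GFP+ libraries lay above all GFP- libraries at 3.61% and below them at 6.63%. At an unadjusted p under 0.05 by limma, 3 of 5 epidermis markers were higher and 2 of 5 mesophyll markers lower. The shares over all genes tested were 3.84% higher and 6.95% lower. The library means of the procambium list and of the stem cell list overlap between the populations. The part of these marker values in the values at VND2, NST1, NST2 and SEOR1 was not tested.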

How the data were processed

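The authors deposited 1 list of THSs per sorted library, with chromosome, start, end and a score on an unstated scale. The genome build was TAIR10, and the tools were SICER, BWA (0.7), Picard (1.105), SAMtools (0.1.19) and bedtools (2.17.0), per the submitters' processing notes. What each tool did and with which settings, how reads were shifted or filtered and how the sheared controls were used is not stated in the sources used here. The table of the whole series that the authors deposited holds 4 columns of gene identifiers (unit: other, no numbers). Score was used only to rank sites within a list. Site starts are multiples of 100 and ends finish in 99, and positions are printed counting from 1. Gene positions came from RefSeq TAIR10.1, without strand or exons. Windows therefore reach 1000 bp to both sides, and exons were not told from introns or UTRs. Protein, promoter and motif descriptions had been planned and are not analysed here.

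The percent of each window covered was fitted with limma 3.58.1 in R 4.3.3 (eBayes with a trend, no block, coverage in at least 2 libraries, Benjamini-Hochberg). Single values were tested with exact permutation over the 6 libraries. Overlapping or touching THSs of the 6 libraries were merged into regions, counted as present with at least 1 bp. The code was tested on simulated data. Groups came from the sample titles. Same-numbered GFP+ and GFP- libraries had correlations of 0.160, 0.0672 and 0.0389 in their deviations. Those of other numbers ran from -0.145 to 0.0853. These values do not settle whether the numbers pair the libraries, and the main fit took no pairs. The 10 genes and the lists were chosen with earlier results of these data known, and no test was made over a list. The text names the 10 genes, DRNL, list genes that passed limma or whose groups do not overlap, bare genes and the 5 genes most like the member with the largest moderated t. MYB46, LBD30, XCP2, ATHB8, PXY and WOX4 were named after their values were seen. Alternatives covered the window, the site lists, the filter, the scale, the trend, a block and leaving out each library.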

Additional observations from a re-analysis of the deposited data

How the results depend on the processing

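No tested xylem NAC gene passed limma under any alternative run, and 7 were tested under most of them. Without a read depth, a THS that falls short of the authors' threshold in 1 library cannot be told from one that is missing, and the number of libraries keeps the exact p at or above 0.1. Over the 13 alternatives on the percent scale that can change its size, the difference at VND2 was 3.86 to 8.19 points. That at NST2 was -10.3 to -2.30 points. These alternatives include the runs with 1 library left out, which cannot turn either sign. In the main window all GFP+ libraries lie above all GFP- libraries at VND2, and no GFP+ library lies above a GFP- library at NST2.

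The number of all genes called higher in GFP+ was 43 with 3000 bp on each side, 125 with flanks alone, 187 with equal numbers of top-scoring sites and 119 without the lowest-scoring 25%. With 1 library left out it was 84 to 208 for genes called higher and 141 to 443 for genes called lower, with 208 without GFP- replicate 3 and 443 without GFP- replicate 1. Members with all GFP+ above all GFP- numbered 0 with 3000 bp, the gene body alone, flanks alone, equal numbers of sites or without the lowest 25%, and 1 to 2 with 1 library left out. Members with all GFP+ below numbered 1 with 2000 bp and 3000 bp on each side (NST2) and with flanks alone (NST1), and 0 to 1 with 1 library left out.

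Pathway genes called higher numbered 1 (SND2, a NAC regulator of secondary walls) with equal numbers of sites. Those called lower numbered 1 to 3 with 1 library left out: MYB83 was added without GFP+ replicate 3, MYB20 and MC9 without GFP- replicate 1, and KNAT7 without GFP- replicate 2. Regions with all GFP+ above numbered 1 with sites within 200 bp joined (NST1, chr2:19225701-19226400) and 1 without the lowest 25% (VND6). They numbered 0 to 3 with 1 library left out. Regions in all GFP- and no GFP+ libraries numbered 1 with equal numbers of sites (VND2), 1 without the lowest 25% (NST1) and 0 to 2 with 1 library left out. The count was 3 without GFP- replicate 3 for the first of these and 2 without GFP+ replicate 2 for the second.

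Directions turned for NST1 coverage with 500 bp on each side (3.13 points) and the gene body alone (4.56 points). They turned for VND7 coverage with 2000 bp (1.83), 3000 bp (1.44), flanks alone (4.97), equal numbers of sites (2.51), without the lowest 25% (1.25) and the arcsine scale (0.0079), and without GFP+ replicate 1 or 3 (0.30) or GFP- replicate 1 (2.50), within a leave-one-out range of -1.27 to 2.50. The number of THSs turned for NST1 with equal numbers of sites (0.333) and for VND6 without the lowest 25% (0.667). PARVUS turned with 3000 bp (-0.87) and MYB7 with flanks alone (1.67). None of these passed its test, and the cause was not tested.

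A fit with the replicate number as a block called 1 gene higher and 29 lower over all genes, and 0 pathway genes lower, with SEOR1 at an adjusted p of 0.161 by limma. GFP+ replicate 2 correlated best with GFP- replicate 3 (0.0853), so not every library matched its own number. GFP+ replicates 1 and 3 correlated best with the GFP- library of their own number (0.160 and 0.0389). The block changed no call at a member.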
